A study of Mus musculus with 2 samples.

Results

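The genes described here encode the proteins of the mitochondrial ribosome, and they were taken by name: every annotated gene whose symbol is Mrpl or Mrps followed by a number, with an optional letter a, b or c. The rule found 78 genes among the 15410 annotated mouse genes with reads, and all 78 had reads in both libraries. Of these, 51 encode proteins of the large subunit, 26 encode proteins of the small subunit, and 1, Mrps36, carries the name but is now assigned to the oxoglutarate dehydrogenase complex. Mrps18a and Mrps30 are small-subunit names whose proteins sit in the large subunit, and they are counted there. The genes lie on 17 chromosomes.

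The study consists of long-read RNA sequencing of heart tissue in 1 group of mice, with 2 libraries labelled as biological replicates 1 and 2. All tissue came from male adults of the strain B6CASTF1/J, a first-generation cross of C57BL/6J and CAST/EiJ, aged 18 to 20 months, and each library started from 2 µg of total RNA. No treatment, mutant or second tissue is part of the group, so the comparisons are between genes, between transcript models and between the libraries. Both libraries carry 1 donor identifier and the same sample text, so the labels do not say whether they come from separate animals. The p-values below measure counting error between these libraries, and the spread may be technical. The files do not separate the alleles of the parent strains.

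Mitochondria keep a small genome of their own, and the messages it encodes are translated inside the organelle by a dedicated ribosome whose RNAs come from that genome and whose proteins come from nuclear genes. These proteins are made in the cytosol and imported, and many have a bacterial counterpart while others are found only in mitochondria. The ribosome makes core subunits of the respiratory chain and of ATP synthase, on which the beating heart depends. Inherited defects in several of its proteins, among them human MRPL3, MRPL44 and MRPS22, cause cardiomyopathy in infancy.

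Replicate 1 held 688861 mouse reads and replicate 2 held 1003999. Levels are given as CPM, read counts scaled to 1e+06 mouse reads in each library. They were not divided by length, since a read was taken to stand for 1 transcript. Whether several reads came from 1 molecule was not tested. A count of 3 reads corresponds to 4.36 CPM in replicate 1 and 2.99 CPM in replicate 2. Markers of cardiac muscle cells, such as Myh6, Pln and Tnnc1, summed to 42893 and 45548 CPM, while 5 of 7 skeletal muscle markers had no read and the other two had 1 read each. Of the markers of other cell types, the 6 endothelial genes summed to 601 and 835 CPM, the 6 fibroblast genes to 684 and 514 CPM, and the 5 adipocyte genes with reads to 264 and 43.8 CPM. The erythroid markers gave 7684 and 6996 CPM and the macrophage markers 152 and 143 CPM. In whole tissue, fewer cells of a type and less RNA per cell cannot be told apart.

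Together the 78 genes gave 10922 CPM in replicate 1 and 11359 CPM in replicate 2, a mean of 11140 ± 308 CPM (SD, n = 2). They therefore took 1.09% and 1.14% of all mouse reads. The large-subunit genes summed to 7534 and 7954 CPM and the small-subunit genes to 3118 and 3101 CPM. Without Mrpl30, the gene with the most reads, the sums were 9694 and 9691 CPM. The median gene had 99.8 CPM, against 25.6 CPM over all 8836 genes with at least 10 reads. The range ran from 28.6 CPM for Mrpl19 to 1448 CPM for Mrpl30, a 50.5-fold spread. Across the 78 genes the libraries gave nearly the same order, with a Spearman correlation of 0.94 over points that share the libraries. In the order of mean CPM, 74 of the 77 pairs of neighbours had overlapping values. The neighbours that did not overlap were Mrpl30 and Mrpl42, Mrpl33 and Mrpl24, and Mrps24 and Mrpl55.

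**Figure D1:**
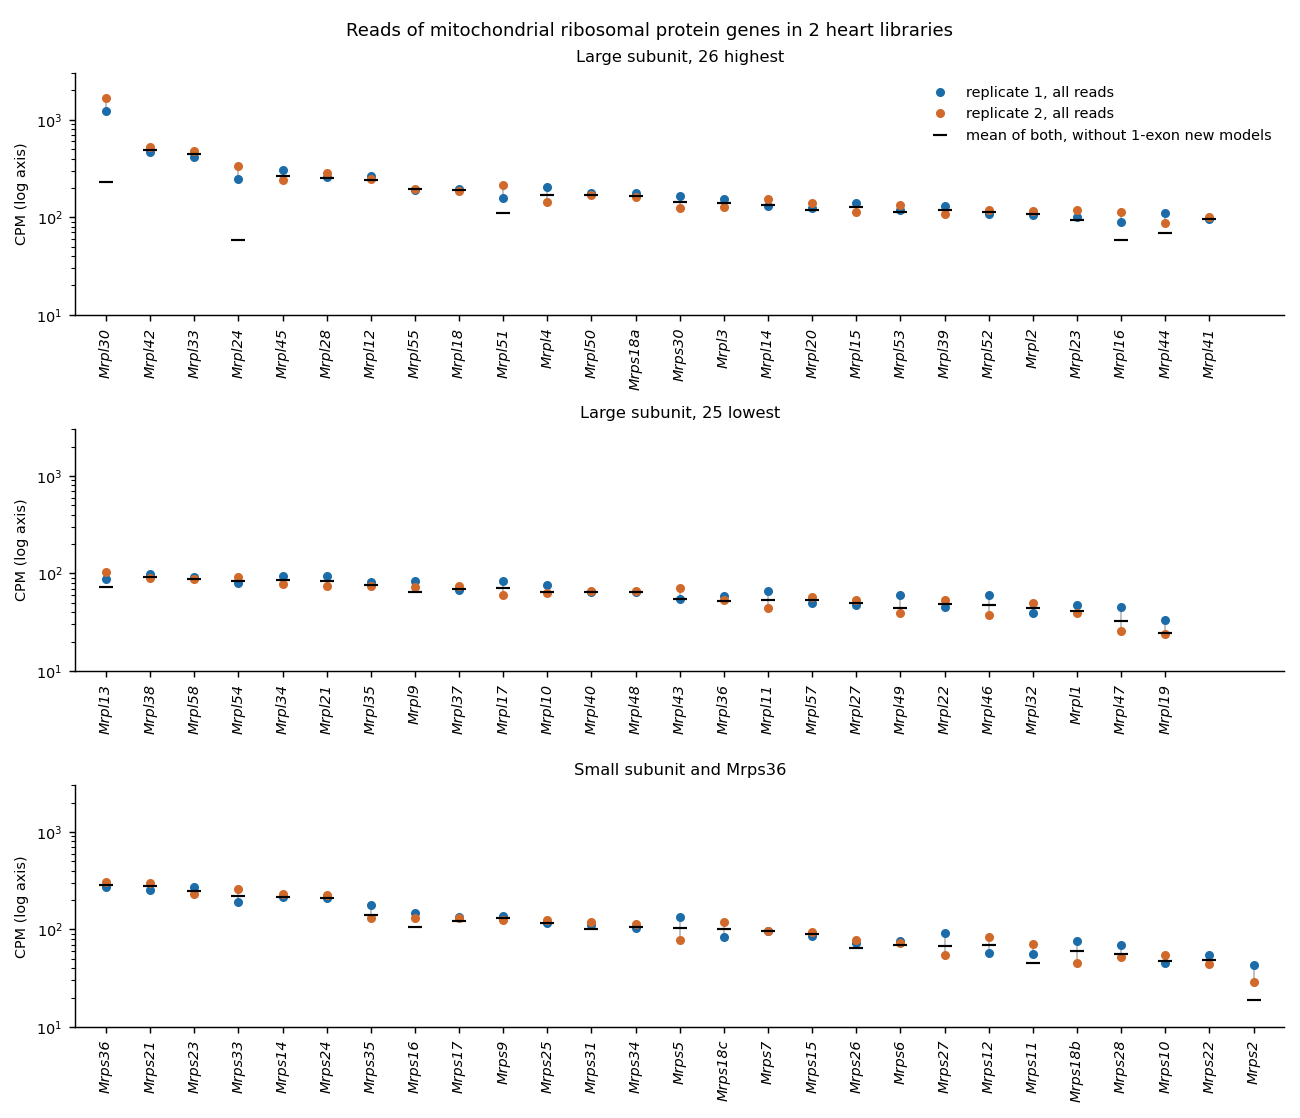
Reads of each mitoribosomal gene in CPM (log axis starting at 10 CPM), with 1 point per library and a black dash for the mean after reads on single-exon new models were left out. Nearly all genes lie close together in both libraries, and the dash falls far below the points for Mrpl30 and Mrpl24.

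Among the large-subunit genes, Mrpl30 (counterpart of bacterial protein L30) was highest, with 846 reads in replicate 1 and 1674 in replicate 2, or 1228 and 1667 CPM. Mrpl42, a mitochondria-specific protein, followed with 323 and 525 reads, or 469 and 523 CPM. Mrpl33 (counterpart of L33) had 284 and 486 reads, or 412 and 484 CPM. Below these, Mrpl24, near the exit of the peptide tunnel, had 248 and 338 CPM, and Mrpl45, which ties the tunnel exit to the inner membrane, had 305 and 242 CPM. Mrpl28, the L28 counterpart, had 260 and 284 CPM. Mrpl30 stood above all others in both libraries, while Mrpl42 and Mrpl33 overlapped each other and lay above the rest.

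The low end of the large subunit was Mrpl19, with 23 and 24 reads or 33.4 and 23.9 CPM, and Mrpl47, with 31 and 26 reads or 45.0 and 25.9 CPM. Mrpl1, Mrpl32, Mrpl46 and Mrpl22 followed with means between 43.4 and 48.9 CPM. All are full members of the particle, and the lowest of them was above the 3-read floor in both libraries.

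The small subunit spanned 7.71-fold from Mrps2 to Mrps21, or 14.8-fold without reads on single-exon new models, for which the large subunit spanned 20.2-fold. Mrps21 (counterpart of S21) had 177 and 303 reads, or 257 and 302 CPM, and the mitochondria-specific Mrps23 had 271 and 232 CPM. Mrps33, also mitochondria-specific, had 190 and 258 CPM, Mrps14 had 213 and 230 CPM, Mrps24 had 209 and 225 CPM, and Mrps35 had 180 and 131 CPM. The first 5 of these overlap from each to the next, so the order of neighbours cannot be read from 2 libraries. Mrps21 and Mrps23 lay above Mrps14 and Mrps24 without overlap, and Mrps35 lay below all 5 in both libraries. At the low end, Mrps2 had 30 and 29 reads, or 43.6 and 28.9 CPM. Mrps22, Mrps10, Mrps28, Mrps18b and Mrps11 had means from 49.5 to 63.7 CPM. Mrps36 had 270 and 304 CPM, close to the highest small-subunit genes.

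Genes for parts of the ribosome with a shared place differed in level among themselves. Of the 5 stalk genes, which help recruit elongation factors, Mrpl12 was highest at 255 ± 11.1 CPM (SD, n = 2), and Mrpl11 was lowest at 54.6 ± 15.2 CPM. Of the 6 genes around the tunnel exit, Mrpl24 and Mrpl45 were highest by all reads, while Mrpl39 had 118 CPM, Mrpl23 had 109 CPM, Mrpl44 had 99.0 CPM and Mrpl22 had 48.9 CPM. Without reads on single-exon new models Mrpl24 had a mean of 58.1 CPM, below Mrpl45 (263), Mrpl39 (118), Mrpl23 (94.8) and Mrpl44 (68.8), although its values overlapped those of Mrpl44. The 7 genes of the central protuberance lay between 48.7 CPM for Mrpl46 and 193 CPM for Mrpl55. Median CPM was 98.1 for large-subunit genes with a bacterial counterpart and 98.7 for the mitochondria-specific ones. In the small subunit the medians were 98.8 and 112 CPM. The S18 family has 3 genes in mammals that descend from 1 bacterial protein. Mrps18a, of the large subunit, had 177 and 163 CPM. Mrps18c had 84.2 and 119 CPM, and Mrps18b had 76.9 and 44.8 CPM. The order of the 3 genes was the same in both libraries.

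The libraries were compared gene by gene with a two-sided exact binomial test on the reads, against each library's share of mouse reads. The p-values were adjusted by Benjamini-Hochberg over the 8836 genes that had 10 or more reads. All 78 genes could be tested and 3 passed: 2 were higher in replicate 2 and 1 was lower. That is 3.85% of them, near the 3.36% of all genes tested that passed (1.36% higher and 2.00% lower). Over all genes the split was 120 higher and 177 lower, and it turned to 168 higher and 124 lower with TMM factors and 166 and 125 with DESeq2 size factors. At an unadjusted p under 0.05 stood 14 of the 78 genes (17.9%) and 12.01% of all genes. The median log2 ratio of replicate 2 to replicate 1 was 0.02 for the 78 genes and -0.06 over all genes. Every ratio lay within 2-fold, from -0.77 to 0.54, with 40 genes above 0 and 38 below. The part of the adipocyte, endothelial and fibroblast marker differences given above in these ratios was not tested.

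Mrps5 (chr2:127587222-127606829), the counterpart of bacterial S5 in the small subunit, had 92 reads in replicate 1 and 78 in the deeper replicate 2, or 134 and 77.7 CPM. Its log2 ratio was -0.77 (adjusted p = 0.0164, exact binomial test). Known transcripts held 90.2% and 84.6% of its reads, and it was lower in replicate 2 also on known transcripts alone (log2 ratio -0.86, adjusted p = 0.00993, exact binomial test). Mrps18b had the same log2 ratio of -0.77 on fewer reads, 53 and 45, and did not pass (adjusted p = 0.171, exact binomial test). With a negative binomial exact test, which uses 1 dispersion estimated over all genes (0.0195), none of the 78 genes passed, and 1 was at an unadjusted p under 0.05. That dispersion was estimated from these same libraries taken as replicates. The difference under test is thus part of it, and the test cannot decide whether the libraries differ.

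Mrpl30 (chr1:37890477-37898535) and Mrpl24 (chr3:87919506-87923672) were the genes called higher in replicate 2. The log2 ratio of Mrpl30 was 0.44 (adjusted p = 3.85e-11) and that of Mrpl24, with 171 and 339 reads, was 0.44 (adjusted p = 0.0320, both by the exact binomial test). Most reads of both genes were on new models with a single exon, which do not show that a spliced message was read. In Mrpl30, 697 of 846 reads in replicate 1 (82.4%) and 1424 of 1674 in replicate 2 (85.1%) lay on such models inside its last exon, which holds the end of the coding part and the 3′ UTR. The model spans 174 bases in replicate 1, chr1:37898165-37898338, and was classed as genomic. In replicate 2 it spans 278 bases, chr1:37898061-37898338, and was classed as an incomplete splice match. The listed end is the annotated end of the transcript Mrpl30-207, and 2 of the next 20 bases of Mrpl30-201 are A. The listed ends of such models may not be those of the reads, since they can coincide with annotated ends, so the bases after them describe the models only. Without these models Mrpl30 had 149 and 250 reads, or 216 and 249 CPM, ranked 9 of 78, and was no longer called (log2 ratio 0.20, adjusted p = 0.680, exact binomial test). The complete Mrpl30-201 held 123 and 215 reads. In Mrpl24, 141 of 171 and 266 of 339 reads (82.5% and 78.5%) were on a genomic single-exon model in the last exon, at chr3:87923210-87923316 in replicate 1 and listed with a length of 1 base at the same end in replicate 2. Of the next 20 bases of Mrpl24-201, 9 are A, against a median of 5 over windows of that length in the transcripts of these 78 genes. Without this model Mrpl24 had 43.6 and 72.7 CPM and was not called (log2 ratio 0.73, adjusted p = 0.222, exact binomial test). The part of priming within the message in these reads was not tested.

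**Figure D2:**
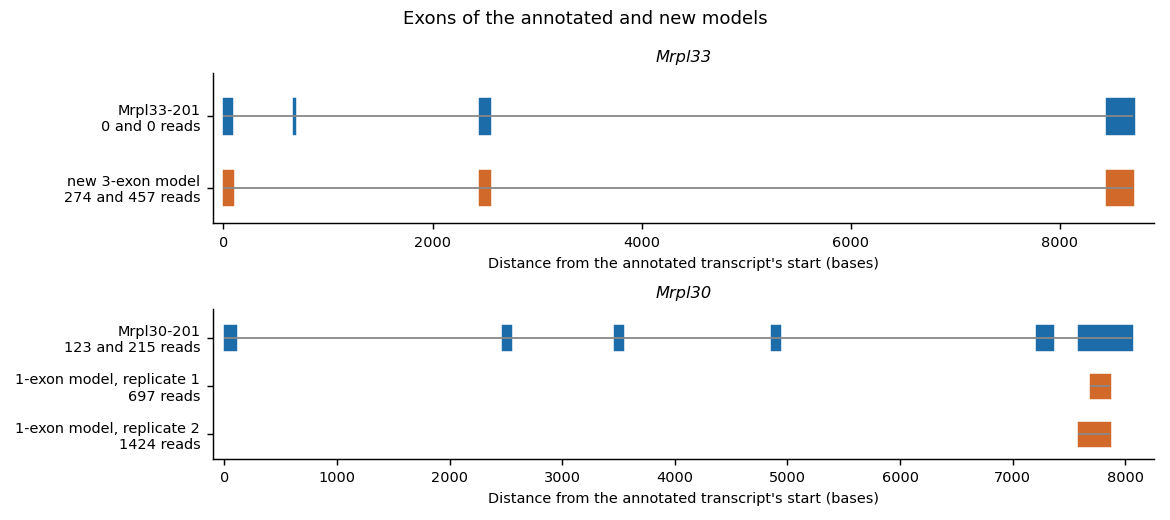
Exons (boxes) of annotated transcripts in blue and of new models in orange, by distance in bases from the annotated start, for Mrpl33 (top) and Mrpl30 (bottom). The new Mrpl33 model lacks the small second exon and holds 274 and 457 reads, and the single-exon Mrpl30 models lie within the last exon.

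Leaving out single-exon new models from all 78 genes lowered their sum to 9225 and 9109 CPM, and the gene with the highest mean was then Mrpl42 at 494 CPM. Other genes with many such reads were Mrps2 (43.3% and 55.2%), Mrpl51 (33.03% and 46.5%), Mrpl16 (37.7% and 45.1%) and Mrpl44 (27.6% and 34.1%). In 7 genes the share was at least 25% in both libraries, and 6 genes had no such read. The median over the 78 genes was 2.57% in replicate 1 and 2.70% in replicate 2. The mean of Mrps2 went from 36.2 to 18.8 CPM and that of Mrpl16 from 101 to 58.5 CPM without these reads.

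**Figure D3:**
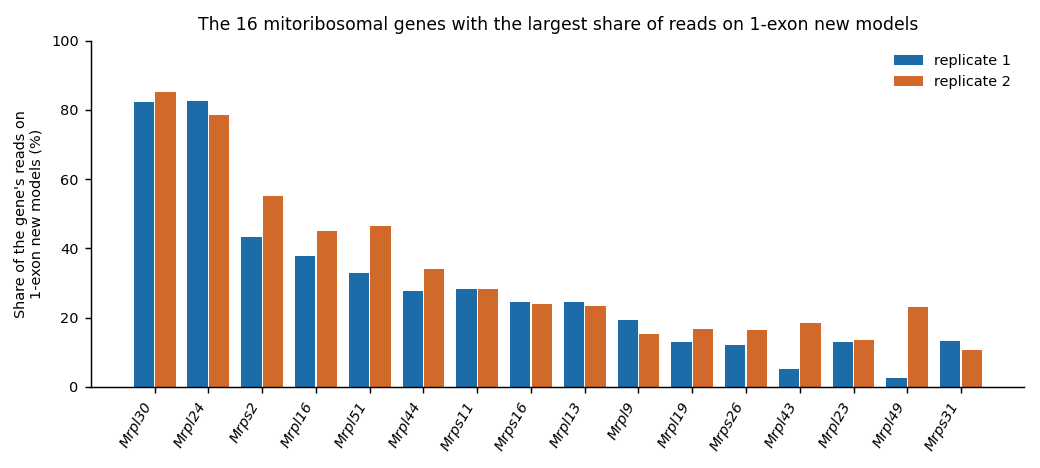
Share of each gene's reads on single-exon new models, in percent, for the 16 genes with the largest share, with 1 bar per library. Mrpl30 and Mrpl24 stand above 78% in both libraries, and the next gene, Mrps2, is at 43.3% and 55.2%.

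Mrpl33 was the gene in which splicing departed most from the annotation. The annotated protein-coding transcript Mrpl33-201 has 4 exons, of which the second is only 19 bases long (chr5:31614603-31614621, plus strand), and it had 0 reads in both libraries. A new model with 3 exons held 274 of 284 reads in replicate 1 (96.5%, 95% Clopper-Pearson interval 93.6 to 98.3) and 457 of 486 in replicate 2 (94.0%, 91.5 to 96.0). The coding part of Mrpl33-201, 195 bases or 65 codons without the stop, is shown because the finding turns on its capitals, which mark the 19-base exon.
Mrpl33-201 coding sequence: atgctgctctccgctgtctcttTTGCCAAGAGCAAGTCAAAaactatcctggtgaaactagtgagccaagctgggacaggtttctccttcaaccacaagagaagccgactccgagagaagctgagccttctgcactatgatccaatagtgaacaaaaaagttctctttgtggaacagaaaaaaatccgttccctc
In place of these 19 bases the new model extends the first exon by 8 bases, GTAAGTCG at chr5:31614023-31614030. The same stretch of the new model is thus 184 bases, 11 fewer, a number that 3 does not divide. Compared only inward from their ends, the 8 bases and the 19-base exon match at 0 positions in a row. Both hold the letters AAGTC inside, so that comparison cannot tell whether they are alike. Only 4 reads in each library were on models that list the 19-base exon by itself, and 7 and 11 reads were on models in which any exon covers it. The files hold models and not reads, so whether the reads carried the 19 bases was not tested. The level of the gene does not depend on this, since nearly all of its reads were on spliced models.

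Over all 78 genes the authors' files list 269 new spliced models in 63 genes, of which 75 were in both libraries and 173 had 1 read in total. At least 5 reads in each library were found for 7 of them, the Mrpl33 model among these. Mrps18a had a new first exon of 285 bases (chr17:46124191-46124475) in place of its first 3 exons, with 23 of 122 reads in replicate 1 (18.9%) and 30 of 164 in replicate 2 (18.3%). The intervals are 12.3 to 26.9% and 12.7 to 25.1%, so they overlap almost fully. In Mrpl55 a 2-exon model without the exons of 84 and 202 bases, the first of which holds the annotated start codon, had 13.6% and 11.2% of reads. Mrps17 had 12.9% and 10.5% on a model without its noncoding 80-base second exon. Mrps33 had 5.34% and 6.56% on a model with an extra exon of 31 bases (chr6:39803151-39803181). Mrpl52 had 6.76% and 5.04% on a model of 4 exons, against 5 in Mrpl52-201. Its 3 introns are all annotated, and its exon of 205 bases is not. Whether an annotated intron was left unspliced in it was not tested.

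The remaining model of this kind, in Mrps27, used only annotated introns, in a chain that no annotated transcript holds. It had 8 of 63 reads (12.7%) and 5 of 55 reads (9.09%) and joined all 11 exons of Mrps27-201 with a coding exon of 123 bases known from Mrps27-202, which adds 41 codons. That exon (GRCm38, chr13:99401270-99401392, plus strand) is shown whole because it is the only difference from Mrps27-201 in the body of the message.
Mrps27 added exon: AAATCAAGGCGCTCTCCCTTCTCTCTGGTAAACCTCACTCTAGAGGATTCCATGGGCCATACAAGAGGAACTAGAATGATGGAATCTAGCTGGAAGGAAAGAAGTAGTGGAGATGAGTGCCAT
Summed over all its new spliced models, a gene reached 10% in at least 1 library in 9 cases. Besides those named, these were Mrps36 (13.4% and 12.5%), Mrps35 (10.5% and 4.55%), Mrpl23 (10.1% and 5.88%) and Mrps10 (3.23% and 10.9%). Mrps35, Mrpl23 and Mrps10 rest on 13 or fewer reads in each library, and their intervals overlap between the libraries.

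**Figure D4:**
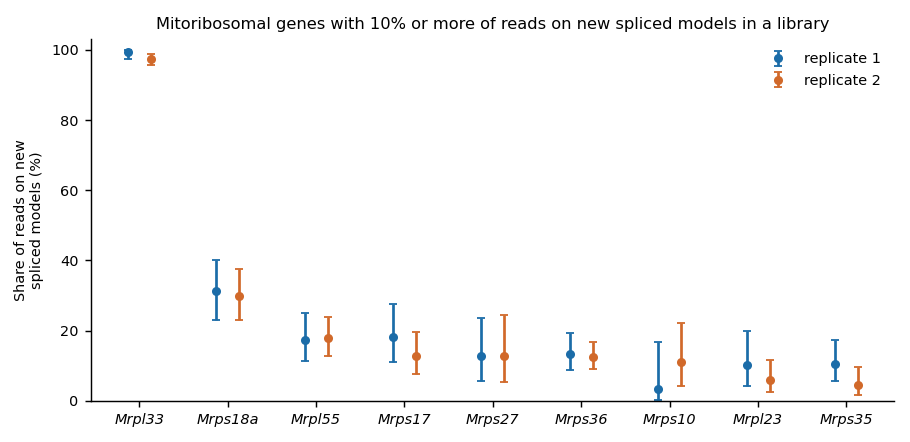
Share of reads on new spliced models, in percent, for the 9 genes with at least 10% in a library, with 1 point per library and 95% Clopper-Pearson intervals as bars. Mrpl33 is near 100% in both libraries, Mrps18a is at 31.1% and 29.9%, and the intervals of the libraries overlap in every gene shown.

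For 74 of the 78 genes the model with the most reads was a known, protein-coding transcript. The exceptions were Mrpl30, Mrpl24, Mrpl33 and Mrps22. In Mrps22, 18 and 24 reads were on an incomplete model with 5 exons, against 19 reads in each library on the whole Mrps22-201, so these models cannot be ranked. The leading model held a median of 87.4% and 86.3% of a gene's reads and at least 90% in both libraries in 19 genes. Only Mrps17 had a leading model under 50% in both, with transcripts that differ in their noncoding second exon. The share of the leading model was compared between the libraries by Fisher's exact test, for genes that had 20 or more reads per library. None of the 78 genes passed, with 3 at an unadjusted p under 0.05 and a smallest adjusted p of 0.297, and 0.710% of the 4087 genes tested passed.

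Known transcripts held 75.1% of the reads of the 78 genes in replicate 1 and 71.0% in replicate 2, against 74.8% and 72.4% over all genes. Models with a splice site outside the annotation (the class NNC) held 5.82% in both libraries, against 2.84% and 2.70% over all genes, and most of these reads belonged to Mrpl33. Without Mrpl30, Mrpl24 and Mrpl33, known transcripts held 87.9% and 87.3% of the reads and NNC models 2.54% and 2.26%. These 3 genes were chosen after their values were seen.

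Short transcripts of these genes tended to be higher in replicate 2 and long ones lower. Over the 78 genes the log2 ratio had a Spearman correlation of -0.45 with the annotated length of the known transcript with the most reads. Over 8370 genes it was -0.05, and both describe genes that share the 2 libraries. Of 26 mitoribosomal genes under 1000 bases, 19 were above 0, with a median of 0.14, and of all 945 genes of that length 637 were above 0. The 27 genes from 1000 to under 2000 bases had a median of -0.07, and the 25 of 2000 bases or more had a median of -0.26 with 8 above 0, against 2195 of all 5329 such genes. Over all genes tested the medians of the same classes were 0.14, -0.09 and -0.11. Of the 3 genes called, Mrps5, at 4481 bases, is in the longest class and Mrpl30, at 969 bases, in the shortest. Mrpl24, at 1339 bases, was higher in replicate 2 in a class whose median was below 0. Annotated length is not read length, which the files do not hold, and its part in the pattern was not tested. For Mrpl33 the length used, 2741 bases, is that of a known transcript with few reads, while its main model has 460 bases.

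**Figure D5:**
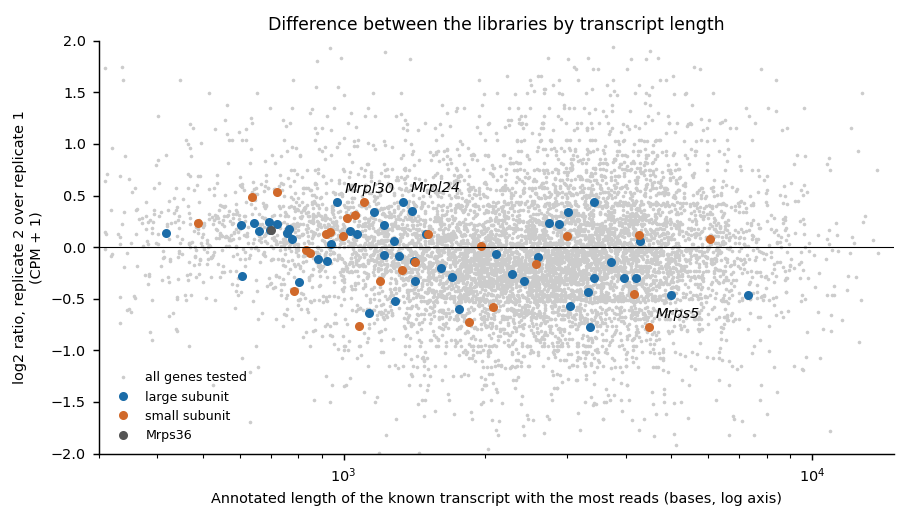
Log2 ratio of replicate 2 to replicate 1 (CPM + 1) against the annotated length of the known transcript with the most reads (bases, log axis), with all genes tested in grey and mitoribosomal genes in color by subunit. Under 1000 bases most genes lie above 0, both the mitoribosomal genes (19 of 26) and all genes tested (637 of 945), and 94 of 8370 genes lie outside the axes.

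Among the other nuclear genes of mitochondrial gene expression that were listed and tested, Gfm1 alone passed between the libraries. Over all 8836 genes tested, 3.36% passed. The 5 ribosomal subunits with other names had a median of 111 CPM, and 0 of 5 passed the binomial test. By all reads they were led by Gadd45gip1, Aurkaip1 and Chchd1 (323, 118 and 111 CPM). Without single-exon new models their median was 85.9 CPM and the highest of them had 117 CPM. The 323 CPM of Gadd45gip1 thus held many reads on such models. The 28 assembly and RNA-modifying factors had a median of 34.0 CPM, led by Afg3l2, C1qbp and Spg7, and 0 of 27 tested passed. Among 14 tested translation and messenger-binding factors, Slirp, Tufm and Gfm1 were highest, with 230, 180 and 148 CPM. Gfm1, the elongation factor for translocation, stood at 179 and 117 CPM (log2 ratio -0.61, adjusted p = 0.0322, exact binomial test). The 20 tRNA synthetase and amidotransferase genes had a median of 28.6 CPM, led by Fars2, Gatb and Iars2, and 0 passed. Of the 5 tested genes for transcription of the mitochondrial genome, led by Tfb2m, Tefm and Polrmt, 0 passed.

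Most of the messages that this ribosome translates were called higher in replicate 2. The ribosomal RNAs mt-Rnr2 and mt-Rnr1 had 294 and 108 CPM and did not pass. Of 10 tested mitochondrial messages, 8 were higher in replicate 2 and 0 were lower, with a median log2 ratio of 0.59. Over all genes tested, 1.36% were called higher and 2.00% lower. The highest were mt-Cytb, at 4194 and 6046 CPM, mt-Co1, at 2831 and 3199 CPM, and mt-Nd2, at 749 and 1134 CPM. All mitochondrial-chromosome reads made up 1.08% of replicate 1 and 1.48% of replicate 2. No test was run of whether the nuclear and the mitochondrial sets differ in their change.

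Some of the counts share sequence or exons with another gene name and are uncertain to that extent. For 5 genes an exon overlapped another gene name on the same strand. The largest were Mrps24 with Urgcp (44 and 83 reads) and Mrps34 with Nme3 (10 and 22 reads), while Mrpl33 with Gm43809, Mrpl53 with Gm42688 and Mrps6 with Slc5a3 had 3 or fewer in all. Near-identical stretches, with at least 90% identity over at least 200 bases, exist under another gene name for 27 of the 78 genes. These include overlapping names, such as Nme3 with Mrps34. Mrpl23-ps1, identical to Mrpl23 over 540 bases, held 41 and 73 reads beside 69 and 119 on Mrpl23. Gm14017, a copy of Mrpl51, held 9 and 16 reads, and Gm5776, a copy of Mrps33, held 13 and 18 reads. Mrpl48 matched the most other names, 56, among them Olfr46 and Vmn2r59, so a match need not be a copy of the gene. Of these names only Mrpl48-ps had a read.

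Many of these genes start back to back with another protein-coding gene. In 18 of 78 (23.1%) a protein-coding gene on the opposite strand starts within 1000 bases upstream, against 11.0% of 8446 protein-coding genes tested and 6.76% of all 22028. The median distance was 82 bases. As a set the 78 genes had a median of 99.8 CPM, against 25.6 CPM over all genes tested. In 15 of the 18 pairs the partner had the lower mean CPM. The exceptions were Psma2, a proteasome subunit beside Mrpl32 (193 and 207 against 39.2 and 49.8 CPM), Fau, a cytosolic ribosomal protein beside Mrpl49 (154 and 179 against 59.5 and 38.8 CPM), and Apba3 beside Mrpl54 (92.9 and 82.7 against 79.8 and 92.6 CPM). Only the first pair and the second pair did not overlap. Mitd1, 66 bases from Mrpl30, had 3 reads in replicate 1 and 0 in replicate 2. Other partners in mitochondrial RNA or protein synthesis were Ptcd2, beside Mrps27, with 63.9 and 68.7 CPM against an overlapping 91.5 and 54.8, and the synthetase gene Sars2, beside Mrps12, with 15.97 and 8.96 CPM against 58.1 and 84.7.

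The stretches between the starts of 4 such pairs are shown as examples of 2 genes read in opposite directions. Levels of the genes lie far apart in all but the Mrps27 pair. All 4 stretches hold some of the letters marked below, while those beside Mrpl57, Mrpl49 and Mrpl30 hold none. The examples thus do not stand for all pairs. The stretches come from RefSeq promoters on GRCm38.p6, which held 69 of the 78 genes, and run 5′ to 3′ on the strand of the mitoribosomal gene. Capitals mark CCGGAAG (ETS factors), GCGCATGC (NRF1), AAGATGGC (YY1), CCAAT or TATAAA, read on either strand. A match is a description of letters and not a site. The positions are chr5:100798599-100798626 for Mrps18c, chr13:99344706-99344785 for Mrps27, chr11:97041408-97041559 for Mrpl10 and chr7:28741821-28741991 for Mrps12.
Mrps18c and Helq: gtgaCTTCCGGcccgggaagcgcgggaa
Mrps27 and Ptcd2: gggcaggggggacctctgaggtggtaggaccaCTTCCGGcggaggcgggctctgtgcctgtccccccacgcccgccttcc
Mrpl10 and Lrrc46: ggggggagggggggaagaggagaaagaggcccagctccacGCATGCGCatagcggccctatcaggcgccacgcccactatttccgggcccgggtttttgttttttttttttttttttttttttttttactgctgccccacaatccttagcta
Mrps12 and Sars2: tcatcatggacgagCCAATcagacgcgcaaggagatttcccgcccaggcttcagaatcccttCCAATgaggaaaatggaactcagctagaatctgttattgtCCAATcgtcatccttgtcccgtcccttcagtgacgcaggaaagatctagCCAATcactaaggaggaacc
Helq, beside Mrps18c, had 3 and 2 reads against 58 and 119, and Lrrc46, beside Mrpl10, had 0 reads in both libraries against 53 and 63. The starts of these pairs lie 29 and 153 bases from each other.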

How the data were processed

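Long-read RNA sequencing of 2 heart libraries of 1 group was analysed. The deposited values are raw read counts per transcript model, which the authors did not normalize, with an annotation of each model; per the file headers and text files, positions are mm10 and known models are GENCODE M21. For the aligner, the read filters and their versions, the sources used here give nothing. The genes and lists were chosen with earlier results of these data known.

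Reads were summed over all models of a gene. CPM used mouse reads only, without spike-ins, and log2 ratios used a pseudocount of 1 CPM. The libraries were compared by exact two-sided binomial tests against their share of mouse reads (at least 10 reads in total), and the share of the leading model by Fisher's exact test (at least 20 reads in each), both with Benjamini-Hochberg adjustment over all genes and a threshold of 0.05 (scipy 1.17.1). edgeR 4.0.16 gave TMM factors and a negative binomial exact test with its common dispersion, and DESeq2 1.42.0 gave size factors, as alternatives. New spliced models were matched between libraries by intron chain. Single-exon new models are those classed as incomplete or genomic with 1 exon. Intervals are 95% Clopper-Pearson and cover counting error only. Near-identical stretches were found with blastn 2.17.0, over at least 50% of the shorter transcript. The binomial and Fisher tests were checked on counts simulated with counting error only, so the check does not cover spread beyond it.

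Genes named are those called, the 6 highest and 6 lowest of each subunit, the S18 family, genes led by a model that is not known, genes with at least 10% of reads on new spliced models, genes with same-strand overlaps, members of the described lists, and the 3 highest and the called genes of the other lists. Other genes named were chosen after their values were seen.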

Additional observations from a re-analysis of the deposited data

How the results depend on the processing

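The count of mitoribosomal genes called between the libraries was 3 in the reported analysis. It was 1 with reads on known transcripts only, 1 without single-exon new models (an alternative added after seeing the data) and 0 with the negative binomial exact test. It stayed between 2 and 4 under the other settings. TMM factors and DESeq2 size factors added Mrps33 (log2 ratio 0.50 in both, adjusted p = 0.0392 and 0.0391, exact binomial test). In place of Mrpl24, the restriction to non-genomic models called Mrps2 (log2 ratio -1.68, adjusted p = 0.00557, exact binomial test). The thinned library called Mrps27 in its place (log2 ratio -1.01, adjusted p = 0.0452, exact binomial test). Thinning was a single random draw from replicate 2, in which Mrps27 kept 31 of 55 reads. With all reads Mrps27 was not called (log2 ratio -0.73, adjusted p = 0.128, exact binomial test). Leaving out genomic models alone raised the log2 ratio of Mrpl30 to 2.94, because its single-exon model was classed as genomic in replicate 1 and as incomplete in replicate 2. In Mrps2 the single-exon reads were classed as incomplete in replicate 1 (13 reads) and as genomic in replicate 2 (16 reads). They were thus left out of replicate 2 only, and with all reads Mrps2 was not called (log2 ratio -0.58, adjusted p = 0.576, exact binomial test). Over all genes the negative binomial test called 27, the binomial test 297. The dispersion of the former holds the difference between the libraries itself, so fewer calls are built into it. No ratio of Mrpl30, Mrpl24 or Mrps5 changed sign under any setting.

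The summed level was 8134 CPM on known transcripts only and 9167 CPM without single-exon new models, against 11140 CPM, and without 1 replicate it was 10922 or 11359 CPM. The median log2 ratio lay between 0.01 and 0.08 under all settings. The median share of known models per gene was 90.05%, against 73.0% of summed reads, and 71.0% or 75.1% without 1 replicate. New spliced models numbered 75 in both libraries, 7 with at least 5 reads in each, and 161 or 183 when 1 replicate was left out. No setting of the test of the leading model called a mitoribosomal gene. No paired analysis was possible because all samples belong to 1 group. In the order of the genes 74 of 77 neighbours overlapped, and 173 of 269 new spliced models had 1 read; the part of depth in either was not tested.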

Other observations

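Letters of promoter motifs were counted over RefSeq promoters (250 bases before to 50 after the start, GRCm38.p6) of 69 mitoribosomal genes, on both strands. The ETS letters CCGGAAG were in 25 of them (36.2%), against 20.5% of 6504 promoters of genes tested between the libraries and 9.12% of all 27025. The YY1 letters AAGATGGC were in 12 (17.4%), against 5.57% and 2.88%. The NRF1 letters GCGCATGC were in 8 (11.6%), against 6.07% and 2.80%. TATAAA was in 4 (5.80%), against 7.24% and 14.2%, and CCAAT in 27 (39.1%), against 39.6% and 37.9%. The ETS and YY1 letters can overlap, and no mitoribosomal promoter held such an overlap. The median GC content was 58.3% in the mitoribosomal promoters and 61.3% in those of the genes tested. No test of these shares was run, and a match shows letters only.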
